A study of Mus musculus with 6 samples.

Results

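The Notch receptors, their ligands and a pair of their target genes were followed in the mouse thymus after X-ray exposure. The set held 10 genes, chosen by gene symbol with 1 value per gene identifier, out of 21954 genes in an mRNA table: the receptors Notch1, Notch2, Notch3 and Notch4, the ligands Dll1, Dll4, Jag1 and Jag2, and the targets Hes1 and Dtx1. Polyadenylated RNA was sequenced from whole thymus of wild-type C57BL mice aged 5 weeks. The irradiated group comprised 3 libraries from mice given 6 Gy of X-rays and killed 24 h later, and the control group comprised 3 libraries from unexposed mice. The labels count 3 mice in each group but do not state which animal gave which library, so every p-value below reflects variation among these libraries, which may be technical in part. Abundance was deposited as FPKM, the number of sequenced fragments per kilobase of transcript and per unit of sequencing depth.

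Notch receptors are single-pass membrane proteins that are cut when a Delta-like or Jagged ligand on a neighbouring cell binds and pulls on them. A first cut outside the membrane and a second cut inside it by gamma-secretase free the intracellular part, which enters the nucleus and joins the DNA-binding protein RBPJ and a Mastermind coactivator to switch on genes such as those of the HES and HEY repressors. In the thymus, DLL4 on cortical epithelium acts on NOTCH1 of incoming precursors and commits them to the T cell lineage, and signalling fades as thymocytes pass the pre-T cell receptor checkpoint. NOTCH4, DLL4 and the Jagged ligands also act in blood vessels, and NOTCH3 in the smooth muscle and pericytes around them.

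RefSeq promoter windows on the mouse build GRCm38.p6, each running from 250 bases before to 50 bases after a transcription start, matched 9 of the 10 genes, with 10 windows in all because Dll1 had a pair. Hes1 had no entry. Windows of 3 genes are shown because these genes span the range of results below: Notch1, the receptor with the highest level, which did not pass the test; Jag1, which had the largest log2 fold change of the 10; and Dtx1, a target with a small change. Notch1 and Jag1 were picked for display after their values were seen. Capitals mark matches, on either strand, to the N-box CACNAG, a sequence bound by HES-family repressors. Each is written 5′ to 3′ on the strand of the gene, which is the minus strand for all 3, at chr2:26503773-26504072 for Notch1, chr2:137116471-137116770 for Jag1 and chr5:120711620-120711919 for Dtx1.
Notch1: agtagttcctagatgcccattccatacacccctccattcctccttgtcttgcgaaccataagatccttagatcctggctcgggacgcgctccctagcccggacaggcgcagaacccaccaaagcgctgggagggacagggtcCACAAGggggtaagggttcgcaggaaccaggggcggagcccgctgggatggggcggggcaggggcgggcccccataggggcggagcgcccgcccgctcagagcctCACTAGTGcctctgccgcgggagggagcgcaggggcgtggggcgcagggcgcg
Jag1: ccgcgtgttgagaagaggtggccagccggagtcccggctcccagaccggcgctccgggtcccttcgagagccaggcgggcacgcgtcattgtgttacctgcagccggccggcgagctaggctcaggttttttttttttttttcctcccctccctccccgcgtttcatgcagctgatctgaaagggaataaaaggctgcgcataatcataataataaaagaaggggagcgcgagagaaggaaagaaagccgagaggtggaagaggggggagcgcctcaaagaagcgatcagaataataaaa
Dtx1: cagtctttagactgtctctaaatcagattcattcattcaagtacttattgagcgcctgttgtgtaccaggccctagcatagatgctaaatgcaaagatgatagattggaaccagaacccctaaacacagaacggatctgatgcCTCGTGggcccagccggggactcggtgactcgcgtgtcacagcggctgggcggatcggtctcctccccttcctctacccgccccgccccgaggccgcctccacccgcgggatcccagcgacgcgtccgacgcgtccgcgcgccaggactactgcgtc
The N-box letters stood at 3 places in the Notch1 window, with first bases at -108, -3 and -1 from the start, and the last pair overlap on opposite strands within CACTAGTG. The Dtx1 window held 1 match, CTCGTG at -107, which is the motif on the opposite strand, and the Jag1 window held none. Of the windows not shown, those of Notch2, Notch3 and Dll4 and 1 of the Dll1 pair held the N-box. Those of Notch4 and Jag2 and the other Dll1 window did not, so genes that rose are found on both sides. Among all 32851 RefSeq promoter windows of this length 42.5% held the N-box. The core of the RBPJ site, TGGGAA, searched on both strands, was in 0 of the 10 windows and in 25.6% of all windows. These are matches of letters in a short window only.

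The libraries differed in far more than the Notch genes. Estimated depth was 24400000 to 25600000 fragments in irradiated libraries and 21900000 to 23200000 in controls. Of 14001 tested genes 42.4% were higher and 20.9% lower after irradiation (limma, a linear model with variances moderated across genes, at an adjusted p under 0.05), with a median log2 fold change of 0.40 over all of them. The tissue label fitted the controls: markers of double-positive thymocytes, the main cortical stage, summed to 65.4 to 125 FPKM in irradiated libraries and 2145 to 2465 FPKM in controls, and 10 of 10 fell. In the irradiated libraries 8 of 8 medullary epithelium markers, 7 of 8 endothelial, 7 of 7 pericyte and smooth muscle, 7 of 7 fibroblast and 8 of 8 macrophage markers rose. Early thymocyte markers, several of which other blood cells also express, rose for 6 and fell for 1 of 8, and cortical epithelium markers rose for 5 of 8. Irradiated replicate 2 stood apart with 3041 FPKM summed over 5 airway epithelium markers, against 45.3 and 44.7 FPKM in irradiated replicates 1 and 3 and 3.28 to 4.06 FPKM in controls. Skeletal muscle markers summed to 3.69, 128 and 26.6 FPKM in irradiated replicates 1, 2 and 3 and to 5.92 to 6.43 FPKM in controls. In bulk tissue, more cells of a type and more RNA per cell cannot be told apart, and the part of tissue composition in the values below was not tested.

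In irradiated thymus each of the 4 ligands, both targets and the receptors Notch2 and Notch4 rose, while Notch1 and Notch3 did not pass the test. Of the 10 genes 8 rose and 0 fell by limma at an adjusted p under 0.05, against backgrounds of 42.4% and 20.9% of all tested genes. At an unadjusted p under 0.05, 9 were higher and 0 lower, and at an adjusted p under 0.05 the authors' deposited table had 7 higher and 0 lower. The irradiated and control libraries did not overlap for the same 8 genes, all higher, beside 46.1% of all tested genes that were higher without overlap. The median log2 fold change was 1.12 for the receptors, 2.49 for the ligands and 1.67 for the targets, beside 0.40 over all tested genes. Without irradiated replicate 2, the library with the most airway RNA, the number called higher was again 8. Airway markers also stood above controls in irradiated replicates 1 and 3, so this fit does not remove such RNA. Under quantile normalization, which gives every library the same distribution of values, it was 5, since Notch4, Dll4 and Dtx1 lost the call. Of all 14001 tested genes 3501 were higher under that scaling.

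**Figure D1:**
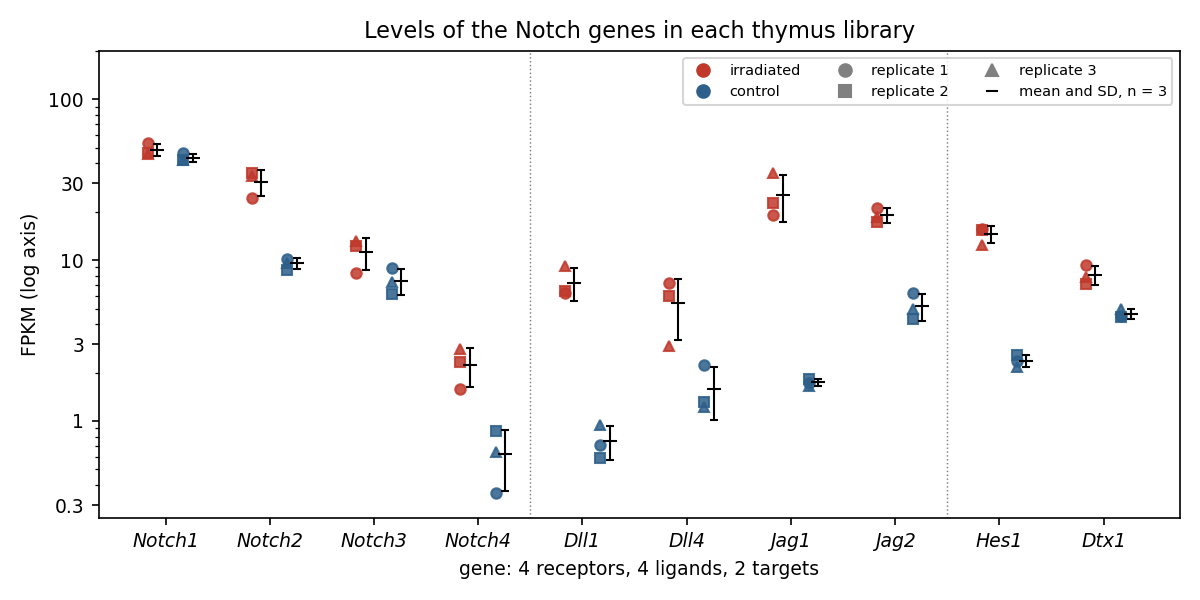
FPKM on a log axis for each of the 10 genes, irradiated libraries left of control libraries, with 1 point per library and, beside them, the mean ± SD (n = 3). Jag1 lies between 19.0 and 34.9 FPKM in irradiated libraries and between 1.66 and 1.83 FPKM in controls, while the Notch1 groups overlap.

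Among the receptors, Notch1, the receptor that commits precursors to the T cell lineage, was not called. Notch1 (ENSMUSG00000026923, chromosome 2, 26457903 to 26516663, minus strand) had 53.4, 46.2 and 45.6 FPKM in irradiated replicates 1, 2 and 3 and 46.3, 41.6 and 42.0 FPKM in control replicates 1, 2 and 3. The groups overlap, since irradiated replicates 2 and 3 lie just under control replicate 1. Its mean was 48.4 ± 4.33 FPKM in irradiated and 43.3 ± 2.59 FPKM in control libraries (SD, n = 3 each), a log2 fold change of 0.16 ± 0.13 (SE) with a limma adjusted p of 0.321. The 95% interval of that log2 fold change, -0.15 to 0.47, holds no change and also the shift of 0.40 seen in the median gene. Its sign turned, at -0.23, when libraries were scaled by the median ratio of their genes, which puts the median gene at 0.01. Double-positive thymocyte markers fell around it, to a sum of at most 125 FPKM in irradiated libraries against at least 2145 FPKM in controls.

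Notch2, a receptor used by B cells, myeloid cells and epithelium among others, rose. Notch2 (ENSMUSG00000027878, chromosome 3, 98013538 to 98150361, plus strand) had 24.2, 34.8 and 33.3 FPKM in irradiated libraries and 10.2, 8.70 and 9.65 FPKM in controls. Every irradiated library stood above every control, irradiated replicate 1 being the lowest of its group. The mean was 30.8 ± 5.71 FPKM in irradiated and 9.52 ± 0.768 FPKM in control libraries, 3.23 times as high, with a log2 fold change of 1.67 ± 0.17 and a limma adjusted p of 0.000268. Macrophage markers summed to 822, 979 and 1092 FPKM in irradiated and 117, 156 and 147 FPKM in control libraries.

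Notch3, the receptor of vascular smooth muscle and also of early thymocytes, did not pass the threshold. Notch3 (ENSMUSG00000038146, chromosome 17, 32120820 to 32166852, minus strand) had 8.30, 12.3 and 13.0 FPKM in irradiated libraries and 8.92, 6.11 and 7.28 FPKM in controls. Irradiated replicates 2 and 3 lie above all controls, and irradiated replicate 1 lies under control replicate 1. The log2 fold change was 0.58 ± 0.23 with a limma adjusted p of 0.0590 and a 95% interval of 0.04 to 1.11. Without irradiated replicate 1 it was 0.78 with an adjusted p of 0.00598. Pericyte and smooth muscle markers summed to 57.0, 239 and 359 FPKM in irradiated replicates 1, 2 and 3 and to 19.4 to 21.5 FPKM in controls, and their mean log2 difference from the control mean was 1.47, 3.76 and 3.72. Replicate 1 was the lowest of the irradiated libraries for Notch3 and by both summaries of the list, while the order of replicates 2 and 3 depended on the summary. By the mean log2 difference, replicate 1 was also lowest for the endothelial, medullary epithelium and macrophage lists, but not for the fibroblast and cortical epithelium lists. The order is thus not particular to 1 list, and its cause was not tested.

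Notch4, a receptor best known from endothelium, had the lowest level of the receptors and rose. Notch4 (ENSMUSG00000015468, chromosome 17, 34564268 to 34588503, plus strand) had 1.58, 2.33 and 2.81 FPKM in irradiated libraries and 0.359, 0.863 and 0.639 FPKM in controls, from an estimated 256 to 452 fragments in irradiated and 53 to 132 in control libraries. The groups do not overlap. The log2 fold change was 1.73 ± 0.38 with a limma adjusted p of 0.00635, but under quantile normalization it was 0.31 with an adjusted p of 0.508. Endothelial markers summed to 50.5, 125 and 118 FPKM in irradiated replicates 1, 2 and 3. In controls they summed to 32.9, 34.0 and 42.0 FPKM. Irradiated replicate 1 was lowest of its group for Notch4 and for this list. It was also lowest for the pericyte and smooth muscle, medullary epithelium and macrophage lists.

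In every irradiated library Notch1 held a smaller share of the receptor RNA than in any control, and Notch2 a larger one. Notch1 made up 61.0%, 48.3% and 48.1% of the summed receptor FPKM in irradiated libraries and 70.3%, 72.6% and 70.5% in controls. Notch2 made up 27.7%, 36.4% and 35.1% in irradiated libraries and 15.6%, 15.2% and 16.2% in controls. The difference was -18.7 percentage points for Notch1 and 17.4 for Notch2, with groups that do not overlap. Notch3 held 12.0 ± 2.26% in irradiated and 12.2 ± 1.45% in control libraries, and Notch4 held 2.40 ± 0.581% and 1.04 ± 0.481% in irradiated and control libraries. The exact two-sided permutation p was 0.1 for Notch1, Notch2 and Notch4, the smallest that 3 against 3 libraries can give, and 1 for Notch3. Notch4's share differed by -0.19 points after quantile normalization.

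The ligands rose together, and Jag1 rose most. Jag1 (ENSMUSG00000027276, chromosome 2, 137081456 to 137116644, minus strand), a ligand of vessel walls and epithelium whose promoter is printed above, had 19.0, 22.7 and 34.9 FPKM in irradiated libraries and 1.73, 1.83 and 1.66 FPKM in controls. The lowest irradiated library lay far above the highest control. The mean was 25.6 ± 8.34 FPKM in irradiated and 1.74 ± 0.0896 FPKM in control libraries, 14.7 times as high, with a log2 fold change of 3.76 ± 0.24 and a limma adjusted p of 6.16e-05.

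Jag2 (ENSMUSG00000002799, chromosome 12, 112907819 to 112929776, minus strand), the ligand with the highest level in controls, had 21.1, 17.2 and 18.6 FPKM in irradiated libraries and 6.26, 4.32 and 4.98 FPKM in controls. The irradiated libraries sat close together, all above the controls. Its log2 fold change was 1.86 ± 0.18 with a limma adjusted p of 0.000200. Medullary epithelium markers summed to 178, 337 and 486 FPKM in irradiated and 38.3, 41.9 and 46.1 FPKM in control libraries. The orders differ within the irradiated group, since Jag2 was highest in replicate 1, where this sum was lowest.

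Dll1 (ENSMUSG00000014773, chromosome 17, 15367354 to 15376872, minus strand), a Delta-like ligand that in the spleen guides marginal zone B cells through Notch2, had 6.22, 6.38 and 9.14 FPKM in irradiated libraries and 0.713, 0.592 and 0.948 FPKM in controls. No irradiated library came near a control. The mean was 7.25 ± 1.64 FPKM in irradiated and 0.751 ± 0.181 FPKM in control libraries, 9.65 times as high, from 547 to 800 and 49 to 74 estimated fragments in irradiated and control libraries. The log2 fold change was 3.11 ± 0.26 with a limma adjusted p of 0.000136.

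Dll4 (ENSMUSG00000027314, chromosome 2, 119325784 to 119335962, plus strand), the ligand that cortical epithelium shows to T cell precursors, had 7.23, 6.01 and 2.93 FPKM in irradiated libraries and 2.24, 1.30 and 1.21 FPKM in controls. Irradiated replicate 3 was the lowest of its group and lay just above control replicate 1. The log2 fold change was 1.66 ± 0.39 with a limma adjusted p of 0.00858, and it was 0.71 with an adjusted p of 0.213 under quantile normalization. Cortical epithelium markers summed to 636, 387 and 217 FPKM in irradiated and to 546, 317 and 345 FPKM in control libraries. Not every marker of that list was lowest in irradiated replicate 3. By the mean log2 difference from the control mean, replicate 3 was also lowest for the fibroblast, early thymocyte and airway epithelium lists. A lowest replicate 3 is thus not particular to 1 list, and its cause was not tested.

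Within the ligand RNA the share of Jag1 was larger, and that of Jag2 smaller, in every irradiated library than in any control. Jag1 held 35.5%, 43.4% and 53.3% of the summed ligand FPKM in irradiated libraries and 15.8%, 22.8% and 18.8% in controls, a difference of 24.9 percentage points. Jag2 held 39.4%, 32.9% and 28.4% in irradiated libraries and 57.2%, 53.7% and 56.6% in controls, a difference of -22.3 points. Dll1 differed by 4.37 points and Dll4 by -7.00 points, and the groups do not overlap for any ligand's share. The exact two-sided permutation p was 0.1 for each ligand, the smallest possible here. Summed over the ligands, FPKM was 53.5, 52.3 and 65.6 in irradiated libraries and 10.9, 8.05 and 8.80 in controls. Receptors summed to 87.5, 95.6 and 94.7 FPKM in irradiated libraries and 65.8, 57.3 and 59.5 FPKM in controls. Ligand FPKM per receptor FPKM was thus 0.617 ± 0.0731 in irradiated and 0.152 ± 0.0133 in control libraries (SD, n = 3 each, exact two-sided permutation p = 0.1).

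**Figure D2:**
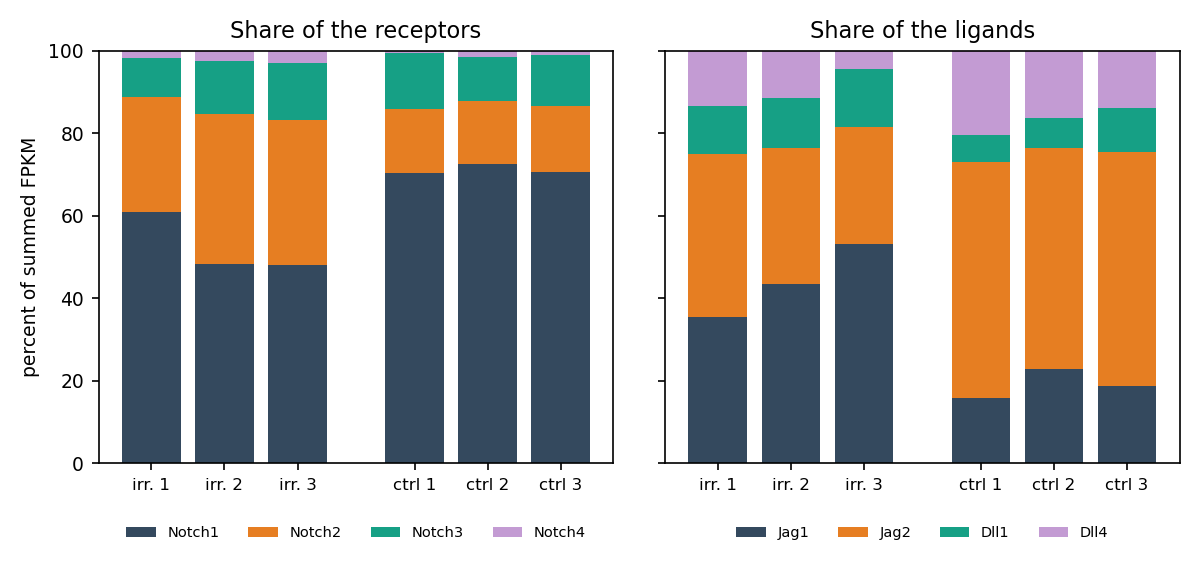
Share of each receptor in the summed receptor FPKM and of each ligand in the summed ligand FPKM, in percent, with 1 stacked bar per library and irradiated libraries left of controls. Jag2 holds 53.7% or more of the ligand FPKM in each control and 39.4% or less in each irradiated library.

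Both targets passed the test as higher. Hes1 (ENSMUSG00000022528, chromosome 16, 30065340 to 30067796, plus strand), a repressor switched on by Notch in many tissues, had 15.6, 15.3 and 12.4 FPKM in irradiated libraries and 2.36, 2.56 and 2.17 FPKM in controls. The groups were far apart, and Hes1 varied little within each. Its limma adjusted p was 6.22e-05, with a 95% interval of the log2 fold change of 2.17 to 2.95.

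Dtx1 (ENSMUSG00000029603, chromosome 5, 120680202 to 120711927, minus strand), the ubiquitin ligase Deltex, a Notch target of lymphocytes, had 9.27, 7.06 and 7.89 FPKM in irradiated libraries and 4.49, 4.40 and 5.00 FPKM in controls. The groups do not overlap. The log2 fold change was 0.78 ± 0.16 with a limma adjusted p of 0.00517. Scaling to equal summed FPKM kept the call, at 0.69 with an adjusted p of 0.0313, while it was lost under quantile normalization (0.26, adjusted p 0.290) and median-ratio scaling (0.40, adjusted p 0.0841). The authors' deposited table gives a log2 fold change of 0.61 with an adjusted p of 0.133.

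**Figure D3:**
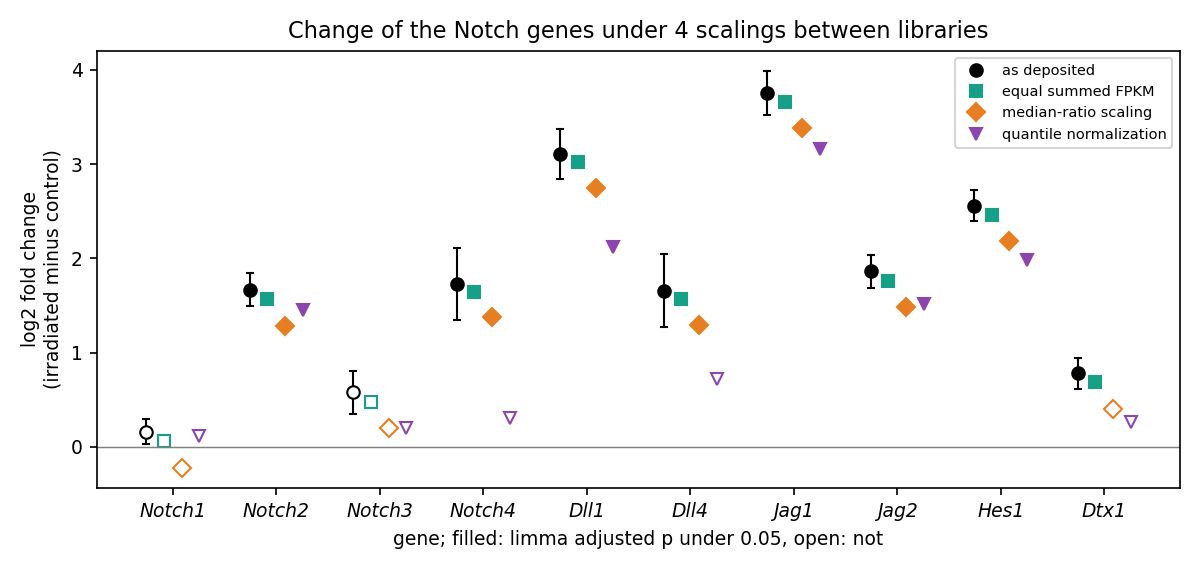
Log2 fold change, irradiated minus control, of the 10 genes under the deposited FPKM scale and 3 other scalings, with the SE on the deposited scale and filled markers where the limma adjusted p was under 0.05. Jag1 stays at 3.16 or higher under each, while Notch1 turns to -0.23 under median-ratio scaling.

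The order of levels, given per transcript length, differed between the groups. In irradiated libraries Notch1 stood above all others, followed by Notch2, Jag1 and Jag2, whose neighbouring ranges overlap. Then came Hes1, Notch3, Dtx1, Dll1 and Dll4, again with overlapping ranges between neighbours, and Notch4 was lowest. In controls Notch1 was again highest, Notch2, Notch3, Jag2 and Dtx1 followed with overlapping neighbours, Hes1 was below them, then Jag1 and Dll4, and Dll1 and Notch4 were lowest. Jag1 was thus among the least abundant in controls and among the most abundant after irradiation.

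The irradiated libraries did not all deviate alike. Relative to the control mean, Jag1 was higher by 3.38, 3.64 and 4.25 on the log2 scale in irradiated replicates 1, 2 and 3, and Dll4 by 2.17, 1.91 and 0.90. Jag1 and Dll4 therefore ran in opposite order across the 3 irradiated libraries. Over the same libraries the mean log2 difference of the endothelial markers was 1.77, 3.48 and 3.43, and that of the cortical epithelium markers 1.45, 1.23 and 0.30. The endothelial list was thus highest in replicate 2, unlike Jag1. Medullary epithelium markers, at 1.69, 2.50 and 2.53, and macrophage markers, at 2.44, 2.67 and 2.74, increased from replicate 1 to 3 as Jag1 did. What lies behind these orders was not tested. The cortical list was mixed, since its summed FPKM in irradiated replicate 3, 217, lay below every control while its mean log2 difference was above 0.

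**Figure D4:**
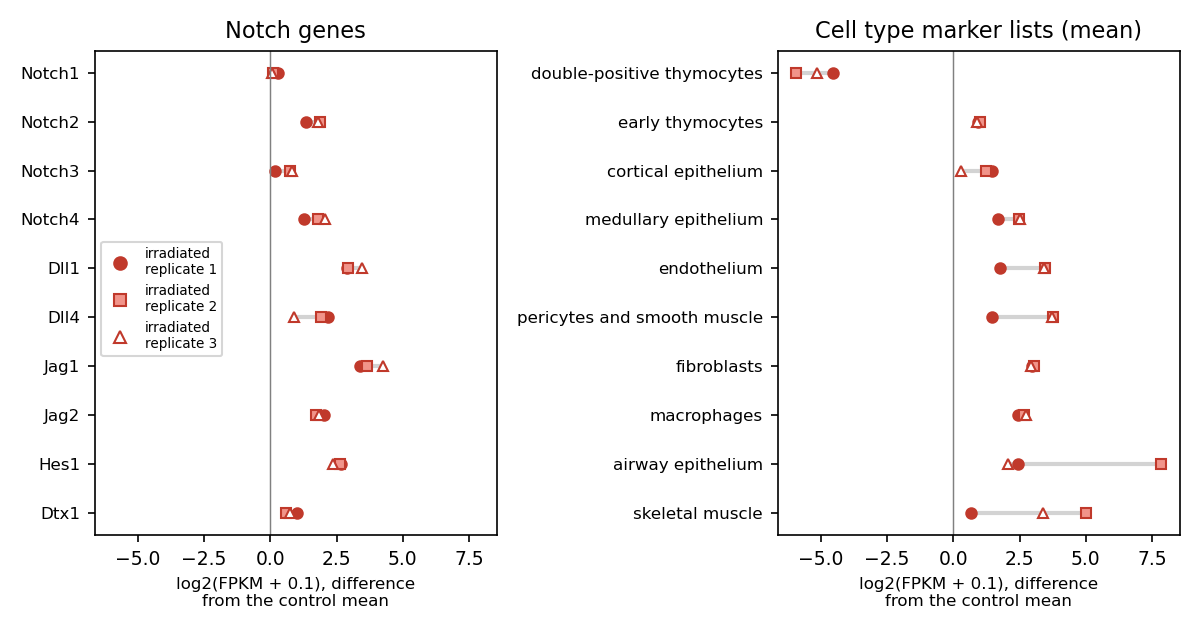
Log2 difference from the control mean in each irradiated library for the 10 genes (left) and for the mean of each marker list (right), on the log2(FPKM + 0.1) scale with 1 point per library. Dll4 is at 0.90 in irradiated replicate 3, where the cortical epithelium markers average 0.30, though not every marker of that list is lowest there. The fibroblast, early thymocyte and airway epithelium lists are also lowest in that library.

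The wider pathway was read through 60 further genes grouped by role, of which 54 passed the filter of 0.5 FPKM on average. Of these 29 rose and 10 fell (limma, adjusted p under 0.05), beside the backgrounds of 42.4% and 20.9% of all tested genes, and their median log2 fold change was 0.48. Median-ratio scaling gave 19 higher and 18 lower of 53, beside 4594 and 4565 of all 13924 tested genes. Quantile normalization gave 19 higher of 54, beside 3501 of all 14001. Leaving out any one control gave 5 lower, beside 2150 to 2278 of all tested genes. Leaving out irradiated replicate 2 gave 6 lower, beside 2481 of 13600. Dll3, Dlk1, Hes2, Hes3, Hes5 and Hes7 were not tested because of low values.

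Of 9 genes of the HES and HEY family and feedback list 5 could be tested. Of these 4 rose and 1 fell, beside 42.4% and 20.9% of all tested genes, and their median log2 fold change was 2.17. Hey2 and Heyl averaged 0.278 and 0.497 FPKM in controls, so they passed the filter of 0.5 FPKM only through the irradiated libraries. This tilts the count and the median towards a rise. With no filter on low values all 9 were fitted, 5 rose and 2 fell, and the median was 0.86. Of all 19228 genes fitted that way 6856 rose and 2897 fell. Hey2, a repressor of heart and vessels, had 3.33, 3.43 and 2.69 FPKM in irradiated and 0.457, 0.199 and 0.179 FPKM in control libraries, a log2 fold change of 3.17 with a limma adjusted p of 0.000390. Heyl had 3.16, 6.23 and 5.52 FPKM in irradiated and 0.751, 0.423 and 0.317 FPKM in control libraries, a log2 fold change of 3.10 with a limma adjusted p of 0.000550. Nrarp, which feeds back on the Notch complex and is itself a Notch target, averaged 5.19 FPKM in irradiated and 1.62 FPKM in control libraries. Hey1, named after its values were seen, rose by 2.17, and Hes6 fell by 0.67 on the log2 scale. Hes6 lost its call when any one control, irradiated replicate 2 or irradiated replicate 3 was left out, with limma adjusted p-values up to 0.0894. Hes5, an untested gene also named after its values were seen, had 0, 0.0615 and 0.110 FPKM in irradiated and 0.581, 0.361 and 0.882 FPKM in control libraries.

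Of 7 tested T cell targets of Notch 5 fell, 1 rose and 1 was not called, with a median log2 fold change of -1.65. The number that fell was 4 with a replicate block in the model, without any one control and without irradiated replicate 2. Among all tested genes 20.9% fell and 42.4% rose. Tcf7, which encodes the transcription factor TCF1 that sets T cell identity, had 42.6, 37.5 and 58.5 FPKM in irradiated libraries and 384, 361 and 355 FPKM in controls, a log2 fold change of -3.01 with a limma adjusted p of 6.95e-05. Ptcra, the pre-T cell receptor chain, averaged 0.228 FPKM in irradiated and 10.6 FPKM in control libraries, a log2 fold change of -5.20. Bcl11b, a regulator of T cell commitment, averaged 19.3 FPKM in irradiated and 140 FPKM in control libraries, a log2 fold change of -2.91. Gata3 and Myc, named after their values were seen, fell by 1.65 and 0.52 on the log2 scale. Igf1r rose, with 17.9 FPKM in irradiated and 8.53 FPKM in control libraries, and Il2ra had 27.6, 13.2 and 13.1 FPKM in irradiated and 13.6, 12.2 and 13.0 FPKM in control libraries and was not called. The double-positive thymocyte markers fell in the same libraries, 10 of 10, and their part in these values was not tested.

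Receptor proteases rose for 8 of 10, beside 42.4% of all tested genes, with a median log2 fold change 0.70 above that of all tested genes. Aph1b and Aph1a, parts of gamma-secretase, had log2 fold changes of 2.02 and 1.20, and Psen2, its catalytic subunit, had 1.24. Aph1b lost its call under quantile normalization, at 0.64 with a limma adjusted p of 0.0864. Adam10 and Adam17, the enzymes of the first cut, were not called, at 0.22 and 0.21 (limma adjusted p 0.204 and 0.356). The count fell to 6 under quantile normalization and under median-ratio scaling, where 3501 of 14001 and 4594 of 13924 tested genes rose.

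In the nuclear complex 3 of 12 tested genes rose and 2 fell, beside 42.4% and 20.9% of all tested genes. The median log2 fold change was -0.18. Rbpj, the DNA-binding core, had 17.6, 27.0 and 24.5 FPKM in irradiated and 15.2, 15.7 and 17.5 FPKM in control libraries, with a limma adjusted p of 0.0497. Its call was lost under 11 of 14 alternatives, among them each other scaling and 5 of the 6 fits without a library. Maml3, a Mastermind coactivator, rose by 0.73, while Hdac1, a histone deacetylase, had a log2 fold change of -1.01 and the corepressor Ctbp1 of -0.46. Hdac1 kept its call under all 14 alternatives, and Ctbp1 lost its call without any one control, with limma adjusted p-values up to 0.0594. Under median-ratio scaling 1 rose and 8 fell, beside 4594 and 4565 of all 13924 tested genes. Maml3, which lost its call under 10 of 14 alternatives, had a log2 fold change of -0.19 under quantile normalization.

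Genes that modify or move the receptors and ligands gave mixed counts, to be read beside the 42.4% of all tested genes that rose. Among the glycosyltransferases, 3 of 5 rose and 1 fell, and among 9 receptor trafficking and turnover genes 5 rose, shares not far from that background. Rfng and Lfng, Fringe enzymes that tune ligand choice, had log2 fold changes of 1.37 and 1.03, Poglut1, which adds O-glucose, had 0.84, and the third Fringe, Mfng, had -0.53. Mfng lost its call without any one control, irradiated replicate 2 or irradiated replicate 3, with limma adjusted p-values up to 0.0963, and Lfng lost its call under median-ratio scaling (adjusted p 0.0510). Of 5 genes listed under ligand endocytosis, the step that makes ligands able to pull, 4 rose and 1 fell. Neurl3 averaged 20.4 FPKM in irradiated and 4.23 FPKM in control libraries, and Mib1, the main such ligase of mammals, averaged 16.4 and 11.8 FPKM in irradiated and control libraries. The count that rose fell to 1 under each other scaling and without irradiated replicate 1 or 2, and Mib1's limma adjusted p was 0.0490. In these fits, other than quantile normalization, only 4 genes of that list passed the filter. The smallest adjusted p of the trafficking and turnover genes was that of Dtx4, a Deltex relative, with 19.9, 23.7 and 24.8 FPKM in irradiated and 2.89, 2.26 and 2.21 FPKM in control libraries. Numbl, a relative of the Drosophila Notch inhibitor Numb, and Nedd4, a ubiquitin ligase that acts on Notch in Drosophila, had log2 fold changes of 2.03 and 1.20. Numbl lost its call under quantile normalization, at 0.76 with a limma adjusted p of 0.0681. Among other ligands Dlk2 averaged 1.18 FPKM in irradiated and 0.399 FPKM in control libraries, so it passed the filter only through the irradiated group. Its log2 fold change was 1.24, or -0.42 under quantile normalization, with the call lost under 11 of 13 alternatives.

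**Figure D5:**
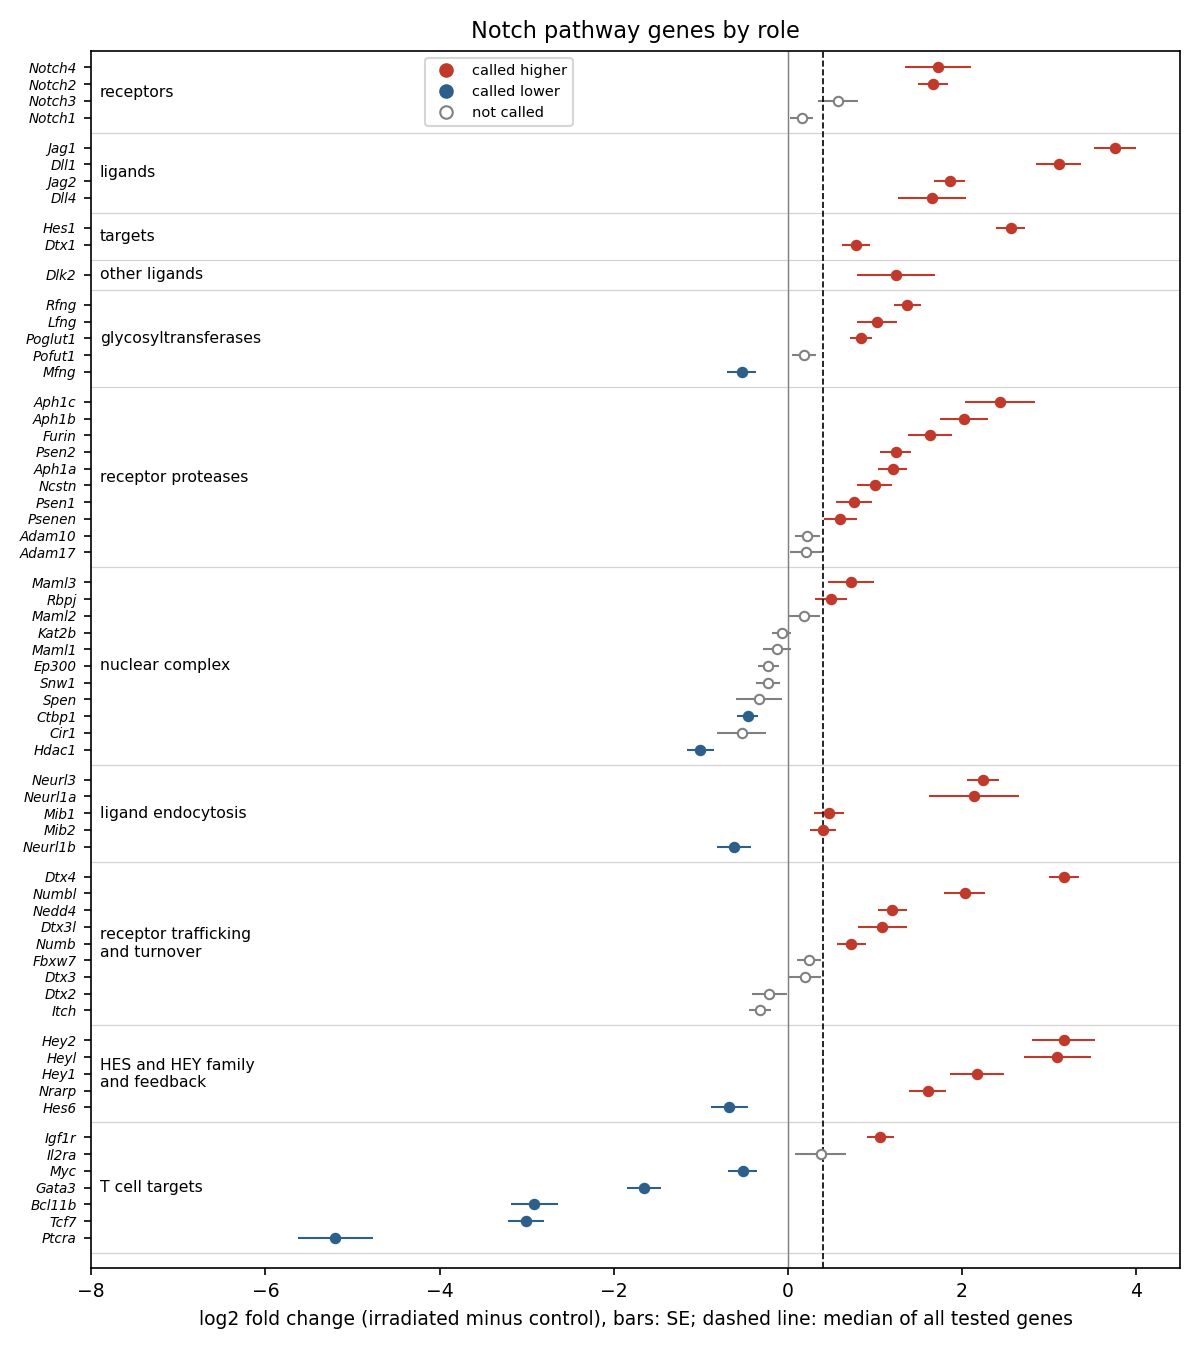
Log2 fold change, irradiated minus control, of the tested genes by role, leaving out 1 gene of the nuclear complex (red called higher, blue called lower, open not called; lines are SE, dashed line the median of all tested genes). T cell targets have a median of -1.65 and the HES, HEY and feedback genes one of 2.17.

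RNA of the same genes that does not code for the full protein was present as well. A lncRNA table held 41 transcripts of the 10 genes, 21 with retained introns and 20 processed transcripts, of which 3 were at 0 in all libraries. They lie within or beside their coding gene and can share sequence with it, so the division of reads between them is uncertain. Summed per gene, 6 of the 10 genes passed the filter, and 4 of these rose, Dll1, Jag1, Jag2 and Hes1, beside a background of 15.8% of tested genes in that table. Dll1 and Jag1 averaged 0.264 and 0.157 FPKM in controls and passed the filter of 0.5 FPKM only through the irradiated libraries, which favours a rise. With no filter on low values 5 sums rose, beside 2286 of 18156 genes. Jag1's sum was 1.12 ± 0.278 FPKM in irradiated and 0.157 ± 0.148 FPKM in control libraries, a log2 fold change of 2.43 with a limma adjusted p of 0.00996. The Notch1 sum was not called, with 14.0, 9.50 and 12.0 FPKM in irradiated and 12.8, 13.3 and 14.0 FPKM in control libraries. Its longest such RNA, a retained intron of 4132 bases at 26498155 to 26503824 of chromosome 2, had 6.54, 5.44 and 5.38 FPKM in irradiated and 5.77, 5.63 and 5.69 FPKM in control libraries. Without irradiated replicate 3 the count of 4 fell to 2, since Jag2 lost its call and Jag1 did not pass the filter.

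Profiles most like those of 4 genes were sought over the 6 libraries among 9113 genes with a mean of at least 5 FPKM, by the root mean square difference of centred log2 values. Nearest to Notch1 were Zfp706 at 0.037, Zxdc at 0.0426 and Sac3d1 at 0.0473. For Dtx1 they were Washc2 at 0.0289, Rbms1 at 0.0454 and Clock at 0.0615, and for Hes1 they were Pls1 at 0.0966, Olfml1 at 0.105 and Fam129a at 0.110. Dll4 had no match as close, its nearest being Sh2d4b at 0.195, Enpep at 0.202 and Alcam at 0.207.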

How the data were processed

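Frozen thymus was extracted with TRIzol and NEBNext libraries were prepared from polyadenylated RNA, per the labels. The deposited mRNA and lncRNA tables give FPKM per library, computed by the authors, and the authors' log2 fold change, p-value and adjusted p-value, for which the submitters' processing notes name the authors' tool as DESeq2, version 1.10.1. The sources used here do not give aligner, annotation or strand use. Coordinates follow the deposited tables, whose transcripts have the starts and ends of GENCODE M21 (GRCm38) in 99.81% (mRNA) and 99.91% (lncRNA) of matches.

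From these, 1 value per gene was taken from the mRNA table, and lncRNA transcripts were summed per gene identifier. Genes averaging at least 0.5 FPKM were fitted on log2(FPKM + 0.1) with limma 3.58.1 in R 4.3.3 (group-only model, empirical Bayes with an abundance trend), which understates changes of low genes. The filter uses the mean over all libraries, so a gene low in controls could pass through the irradiated group alone. P-values were Benjamini-Hochberg adjusted over all 14001 (mRNA) or 9421 (lncRNA) genes, with a threshold of 0.05. The fit was tested on simulated data. Depth was estimated from the smallest steps of FPKM times length, and fragment numbers cover counting error only. The genes and lists were chosen with earlier results of these data known. Of the wider list, up to 3 genes per role and direction with the smallest adjusted p were named, plus genes not called where the text counts on them. In the nuclear complex, 1 gene is counted but not reported here by name. Alternatives covered pseudocount, filter, scaling, a replicate block and leaving out each library.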

Additional observations from a re-analysis of the deposited data

How the results depend on the processing

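Over 14 alternatives, the calls on the 10 genes kept direction and side of the threshold in 134 cases, lost the call in 4, gained one in 1 and turned sign in 1, which was Notch1 under median-ratio scaling (-0.23, adjusted p 0.239). Of the 10 genes, those called higher numbered 5 under quantile normalization and 8 to 9 without each library. Pathway genes called higher numbered 19 under quantile normalization and 19 under median-ratio scaling, and 23 to 26 without each library. Those called lower numbered 18 under median-ratio scaling and 5 to 12 without each library, with 5 without any one of the controls, 6 without irradiated replicate 2 and 12 without irradiated replicate 1. Of all tested genes, 3501 of 14001 were higher under quantile normalization. Under median-ratio scaling 4594 of 13924 were higher and 4565 lower. Without each library 4916 to 6730 of 13600 to 14143 were higher and 2150 to 3466 lower. Noncoding sums called higher numbered 2 to 4 without each library. Quantile normalization set the median gene at -0.07 and median-ratio scaling at 0.01, against 0.40 as deposited. Signs turned under quantile normalization for Dlk2 (-0.42), Maml3 (-0.19) and Notch4's share (-0.19 points). The noncoding Notch1 sum, -0.20 as deposited, was 0.33 under quantile normalization, 0.25 under median-ratio and 0.18 under summed-FPKM scaling. The median over all tested lncRNA genes was -0.44 as deposited and -0.14, 0.005 and -0.06 under these scalings, so the sum lay above it each time. Share differences under quantile normalization were 0.884 points for Dll1 and -15.6 for Jag2. Without each library they ran, in points, from -22.9 to -16.5 for Notch1, 15.8 to 20.1 for Notch2, -0.97 to 1.17 for Notch3, 1.08 to 1.66 for Notch4, 3.52 to 5.65 for Dll1, -8.84 to -4.32 for Dll4, 20.3 to 29.2 for Jag1 and -25.2 to -19.7 for Jag2. Notch3's share difference turned positive without irradiated replicate 1 (1.17) or control replicate 1 (0.594). The cause of these shifts was not tested.

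Replicate numbers did not pair the samples: deviations of same-numbered libraries correlated across genes at -0.04 to 0.06, and others at -0.10 to 0.06. With a replicate block, 8 of the 10 genes were called higher and 0 lower, 25 pathway genes higher and 7 lower, and 4 noncoding sums higher. Depth limits Notch4, Dll1, Hes1 and Dll4, at 49 to 187 estimated fragments in controls.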
